A study of Mus musculus with 16 samples.

Results

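Serpins are a superfamily of proteins that share a fold, most of which inhibit proteases by offering a reactive loop as bait and trapping the enzyme that cuts it. They restrain the clotting, fibrinolytic and complement cascades in plasma and the granule proteases of leukocytes inside cells, and some members have lost inhibition and instead carry hormones or assist the folding of collagen. The letter after the family name gives the clade, with secreted proteins of the antitrypsin type in clade A and intracellular proteins in clade B. The members described here are all genes of the deposited table whose symbol starts with Serpin, 56 of 18132 genes. They comprise 22 genes of clade A, 24 of clade B, 2 each of clades E, F and I, and 1 each of clades C, D, G and H. All 56 matched a symbol of the RefSeq annotation of GRCm38.p6, which places 21 of the clade A genes on chromosome 12 and Serpina7 on chromosome X, and divides clade B evenly between chromosomes 1 and 13, with 12 genes on each. RefSeq lists 2 of the members, Serpina4-ps1 and Serpina3h, as pseudogenes.

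Kidney RNA was hybridized to Illumina BeadChips from wildtype (WT) mice and from mice lacking IL-33, a nuclear cytokine, and the response of the serpins to obstruction was compared within and between the genotypes. Obstruction was unilateral ureteral obstruction (UUO) of 24 h, in which the closed ureter dams the urine and injures the kidney behind it. UUO was measured in 7 WT mice and in 5 that lacked IL-33, and each genotype had 2 kidneys that the labels call control without saying whether the mice were sham-operated. The labels divide the UUO kidneys into 2 sets of mice. Set 1 held 3 WT and set 2 held 4 WT kidneys, beside 2 and 3 without IL-33, and the set of the controls is not stated. The mice were 8 weeks old, and the strain without Il33 had been backcrossed to C57BL/6J BomTac mice for 10 generations. Arrays are named by the number in their label.

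The deposited values are linear intensities, 1 per gene, and are given here as log2 after quantile normalization. A log2 intensity of about 6.6 is the floor of the table and the array median was 7.05, so a difference of 1 on this scale is a doubling only for genes well above the floor and less than the true change for dim ones. Levels of different genes are not comparable on such arrays, because each probe has its own brightness. Il33 itself, the deleted gene, lay between 6.80 and 7.02 on the 7 IL-33-deficient arrays, between 8.39 and 9.57 on the WT arrays after UUO and at 7.62 and 8.02 on the WT controls, so every label matched its genotype. Whole kidneys were measured, in which fewer cells of a type and less RNA per cell cannot be told apart.

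A pair of WT arrays of set 1 stood apart from the other UUO arrays. On array 3820 Havcr1, the tubular injury marker KIM-1, reached 10.42, against 12.84 to 13.95 on the other 11 UUO arrays and 7.07 to 7.37 on the controls. On array 3818 genes made chiefly by the liver were high: of the 5 liver genes listed, Ahsg was at 9.36, Apoa2 at 10.71 and Cps1 at 7.41, above every other array, while Alb at 6.79 and Fgb at 6.68 were no higher than elsewhere. The summed liver level was 11.41 (log2) on that array and 9.30 to 9.63 on the other 15. Mup1, at 12.05 against 6.77 to 6.96 elsewhere, and Hpx, at 10.43 against 6.90 to 7.22, were looked at after these values were seen. Several results that rest on either array are given with and without it.

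Among the serpins, Serpina1e, a gene of the alpha-1 antitrypsin cluster, was at 10.40 on array 3818 and between 6.76 and 7.04 on the other 15 arrays. Serpina1c on the same array was at 9.30, against 7.39 to 8.22 on the other WT arrays after UUO. Serpina3m, a gene of the antichymotrypsin cluster, was at 7.56 there against 6.99 to 7.11. These 3 serpins were therefore highest on the array on which the liver genes were high, as were 7 other members by smaller margins, among them Serpina1b at 11.85 against at most 11.69 and Serpina1d at 11.42 against at most 11.31. Whether that array held liver RNA, and what part it had in their levels, was not tested. Without array 3818 the mean of Serpina1e after UUO in WT kidneys was 6.93 ± 0.08 (SD, n = 6) in place of 7.42 ± 1.31 (SD, n = 7), beside 6.91 and 6.85 in the 2 WT controls. The genes Serpina1a to Serpina1e are near-identical copies, so which of them a probe reads is uncertain, and the same holds for the Serpina3 genes. Serpina1a, Serpina1b, Serpina1c, Serpina1d and the more distant Serpina1f were above the array median on all 16 arrays, and none of these passed the test in either genotype.

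**Figure D1:**
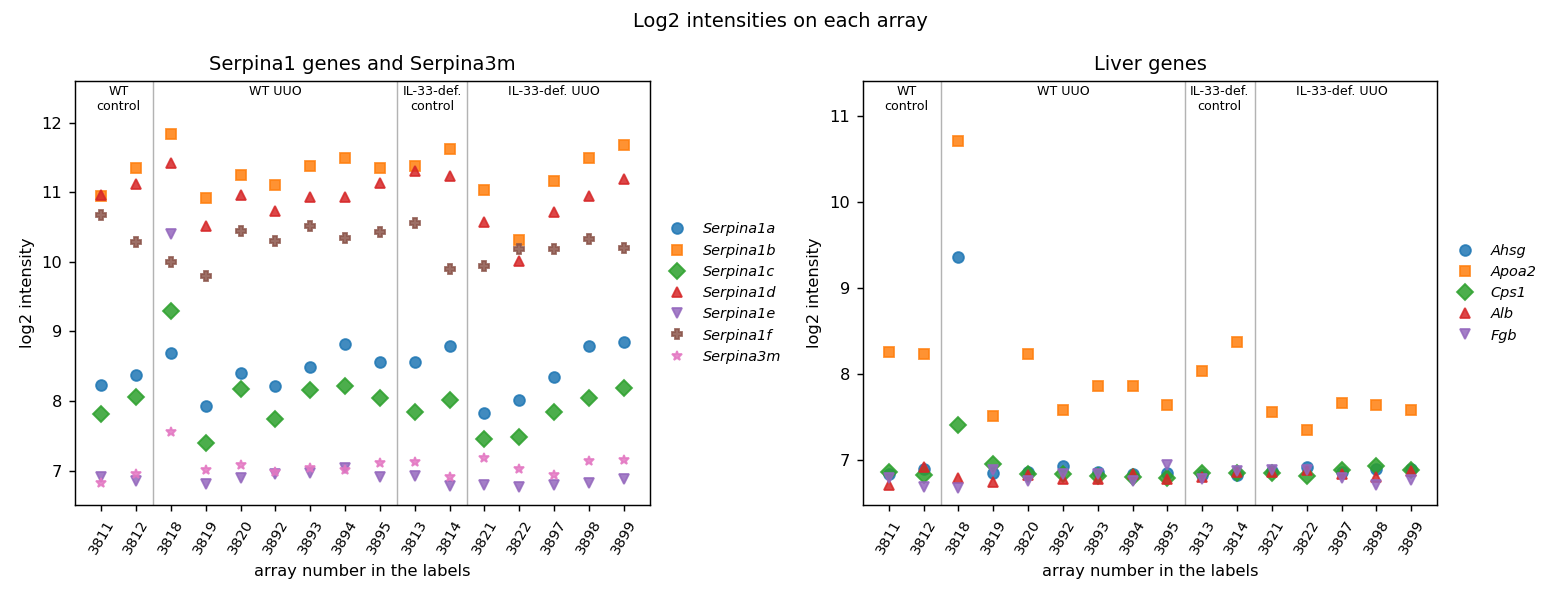
Log2 intensity of the 6 Serpina1 genes and Serpina3m (left) and of 5 liver genes (right) on each of the 16 arrays, named by their number and ordered by group. Serpina1e stood at 10.40 on array 3818 and at 7.04 or less elsewhere, and Ahsg and Apoa2 were highest on the same array.

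Of the 56 serpins, 31 lay below the array median on all 16 arrays, 14 lay above it on all and 11 on some. Below the median on all arrays were 55.4% of the serpins and 37.1% of all genes. They included 17 of the 24 clade B genes, antithrombin (Serpinc1), heparin cofactor II (Serpind1) and both members of clade I, Serpini1 and Serpini2. None of these 31 passed the test in either genotype, and their log2 fold changes lay between -0.13 and 0.11. The UUO arrays entered this grouping, so a serpin that rose past the median is not among the 31, which keeps their changes small. Serpina7, below the median on every control, rose and lies outside the group. Since the table carries no detection p-values, such values can be background, and a change of the 31 could be missed on these arrays.

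The response to obstruction was tested in each genotype with limma in 1 model over the 16 arrays, at an adjusted p of 0.05. In WT kidneys 7 of 56 serpins passed, 6 higher and 1 lower, beside 15.2% of all genes, of which 6.97% were higher and 8.22% lower. In IL-33-deficient kidneys 7 passed as well, again 6 higher and 1 lower, beside 21.8% of all genes, of which 10.6% were higher and 11.2% lower. The serpins called were the same in both genotypes, and each moved the same way. Over all genes, 85.3% of those called in WT kidneys were called the same way in IL-33-deficient kidneys and 59.4% of those called there were called in WT. Serpina10, Serpina3n, Serpina7, Serpinb6a, Serpinb6b and Serpinh1 rose and Serpinf2 fell. The median log2 fold change of the 56 serpins was 0.0080 in WT and -0.013 in IL-33-deficient kidneys, and that of all genes was -0.00076 and -0.00057.

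By clade letter, 3 of 22 clade A genes and 2 of 24 clade B genes rose in each genotype, beside 6.97% of all genes in WT and 10.6% in IL-33-deficient kidneys. The median log2 fold change of clade A was 0.03 in WT and -0.02 in IL-33-deficient kidneys and that of clade B was 0.01 and 0.04. With 1 array left out the medians of clade A were 0.016 to 0.055 and -0.031 to -0.011 and those of clade B -0.00032, without array 3894, to 0.014 and 0.023 to 0.062, so none of them is far from 0. Clade H, which has Serpinh1 as its 1 member here, rose, and 1 of 2 genes of clade F fell. None of the genes of clades C, D, E, G and I passed. Among the 49 others the largest log2 difference was -0.59, of Serpina1d in IL-33-deficient kidneys, and in WT it was the 0.54 of Serpina1e, which rests on array 3818.

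**Figure D2:**
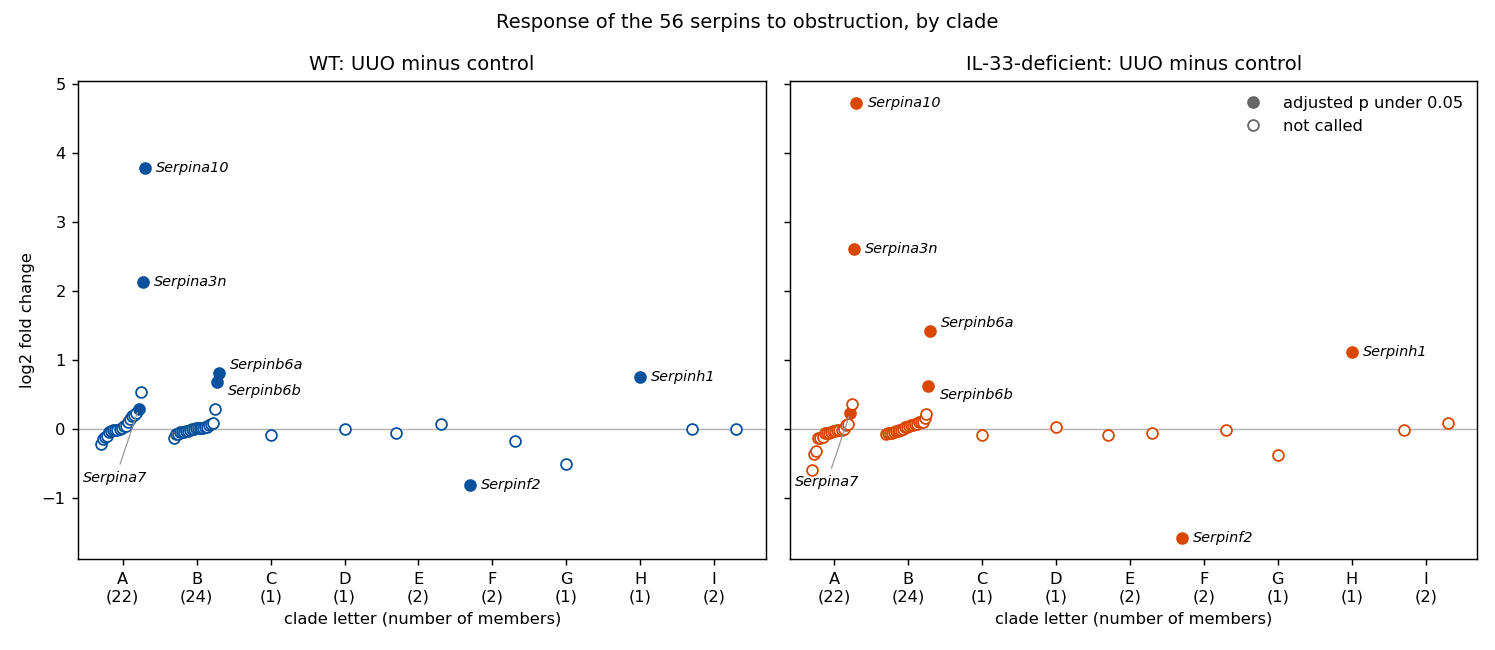
Log2 fold change of each of the 56 serpins, UUO minus control, by clade letter, in WT (left) and IL-33-deficient kidneys (right). Filled points passed an adjusted p of 0.05, 7 in each genotype, and the other 49 lie between -0.59 and 0.54.

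Serpina10 encodes the protein Z-dependent protease inhibitor, which with protein Z blocks the clotting factor Xa. Its log2 intensity in WT kidneys was 7.40 and 7.28 in the controls, and after UUO 9.43 at the lowest, 11.37 at the median and 11.77 at the highest of 7. In IL-33-deficient kidneys it was 7.27 and 7.16 in the controls and 12.14, 11.98, 11.79, 11.85 and 11.95 after UUO. All UUO arrays of both genotypes lay above all controls, and the WT array lowest after UUO was 3820, the array with the low Havcr1. On average it rose 13.7-fold in WT, by a log2 of 3.78 ± 0.41 (here and below ± is the standard error of a difference; adjusted p = 6.97e-05 from limma), and 26.5-fold in IL-33-deficient kidneys, by 4.73 ± 0.43 (adjusted p = 7.81e-06 from limma). The controls lay near the floor, where folds are compressed, and after normexp background correction the log2 values were 4.29 and 5.32. Without array 3820 the WT value was 4.06. Proz, the protein Z gene, moved the other way, by -0.26 in WT (adjusted p = 0.0073 from limma) and -0.25 in IL-33-deficient kidneys (adjusted p = 0.0059 from limma), with all its levels between 6.79 and 7.18, near the array median.

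Serpina3n, an acute-phase antichymotrypsin of the mouse that can inhibit granzyme B and elastase, was the other strong riser. The WT controls were at 7.06 and 7.10 and those without IL-33 at 6.95 and 7.17. After UUO it ranged in WT from 8.40 to 10.33 with a median of 9.24, and in IL-33-deficient kidneys it was 9.74, 10.04, 9.77, 9.79 and 9.01. No UUO array overlapped the controls. The highest WT value was that of array 3818, with the high liver genes, and the lowest that of array 3820. The log2 fold change was 2.13 ± 0.37 (adjusted p = 0.00166 from limma) in WT and 2.61 ± 0.39 (adjusted p = 0.000237 from limma) in IL-33-deficient kidneys. Leaving out array 3818 gave 1.94 in WT and leaving out both arrays gave 2.06, each still past the threshold.

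Serpina7, thyroxine-binding globulin, rose by far less. It was at 6.82 in both WT controls and at 6.88 and 6.78 in the IL-33-deficient ones, all below the array median. After UUO it ranged from 6.93 to 7.27 in WT and from 7.0 to 7.15 in IL-33-deficient kidneys, above every control of the same genotype. The log2 fold changes were 0.29 ± 0.07 (adjusted p = 0.0121 from limma) and 0.23 ± 0.07 (adjusted p = 0.0351 from limma). The gene was measured close to the floor, where fold changes are compressed, and the call was lost in WT without either control array, with adjusted p of 0.104 and 0.115 from limma, and in IL-33-deficient kidneys without either control array or either array of set 1.

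Serpinb6a and Serpinb6b are intracellular serpins of the cluster on chromosome 13, and the product of Serpinb6a inhibits cathepsin G. Serpinb6a was at 9.36 and 9.35 in the WT controls and between 9.70 and 10.37, with a median of 10.19, after UUO. In IL-33-deficient kidneys it was at 8.99 and 9.23 in the controls and at 10.78, 10.64, 10.45, 10.45 and 10.28 after UUO. UUO and control arrays did not overlap in either genotype, and array 3820 was again the lowest WT array. The log2 fold change was 0.81 ± 0.15 (adjusted p = 0.00229 from limma) in WT and 1.42 ± 0.16 (adjusted p = 3.22e-05 from limma) in IL-33-deficient kidneys.

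Serpinb6b was at 7.29 and 7.12 in the WT controls and from 7.30 to 8.28, with a median of 7.90, after UUO. It was at 7.36 and 7.31 in the IL-33-deficient controls and at 7.5, 7.99, 8.06, 8.17 and 8.08 after UUO. Here array 3818 was the lowest WT array and touched the controls to within 0.01. The log2 fold changes were 0.69 ± 0.19 (adjusted p = 0.0265 from limma) and 0.63 ± 0.20 (adjusted p = 0.0373 from limma). The WT call was lost without either WT control, with adjusted p of 0.111 and 0.241 from limma. In IL-33-deficient kidneys the call was lost when any 1 of 6 of the 7 arrays was left out, with adjusted p between 0.0619 and 0.189 from limma, the exception being array 3821. Of the other members of the cluster that were bright enough to follow, Serpinb1a, an inhibitor of neutrophil elastase, was at 7.19 and 6.99 in the WT controls and from 7.20 to 7.77 after UUO, a log2 difference of 0.29 that missed the threshold with an adjusted p of 0.0883 from limma. Its highest WT value was that of array 3820, and it passed without that array.

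Serpinh1 encodes HSP47, a chaperone of the endoplasmic reticulum that binds procollagen and inhibits no protease. It was at 8.0 and 7.75 in the WT controls and from 7.77 to 9.01, with a median of 8.81, after UUO. In IL-33-deficient kidneys it was at 7.77 and 7.96 in the controls and at 8.78, 9.11, 9.02, 9.04 and 8.93 after UUO. In WT kidneys array 3820 lay among the controls, and in IL-33-deficient kidneys the groups did not overlap. The log2 fold change was 0.75 ± 0.23 (adjusted p = 0.0406 from limma) in WT and 1.11 ± 0.24 (adjusted p = 0.00356 from limma) in IL-33-deficient kidneys. The WT call was lost when any 1 of 7 of the 9 WT arrays was left out, with adjusted p between 0.0627 and 0.315 from limma, and without array 3820 the log2 fold change was 0.89 (adjusted p = 0.000238 from limma). In IL-33-deficient kidneys the call was lost without control array 3813 (adjusted p = 0.0582 from limma).

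Serpinf2 encodes alpha-2-antiplasmin, the main inhibitor of plasmin, and was the 1 serpin that fell. It was at 11.47 and 11.49 in the WT controls and from 10.12 to 10.97, with a median of 10.76, after UUO. In IL-33-deficient kidneys it was at 11.75 and 11.59 in the controls and at 9.96, 9.75, 10.07, 9.94 and 10.77 after UUO. Every UUO array lay below every control. The log2 fold change was -0.80 ± 0.23 (adjusted p = 0.0253 from limma) in WT and -1.57 ± 0.23 (adjusted p = 0.000239 from limma) in IL-33-deficient kidneys. The WT call was lost without either WT control, with adjusted p of 0.151 and 0.18 from limma.

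**Figure D3:**
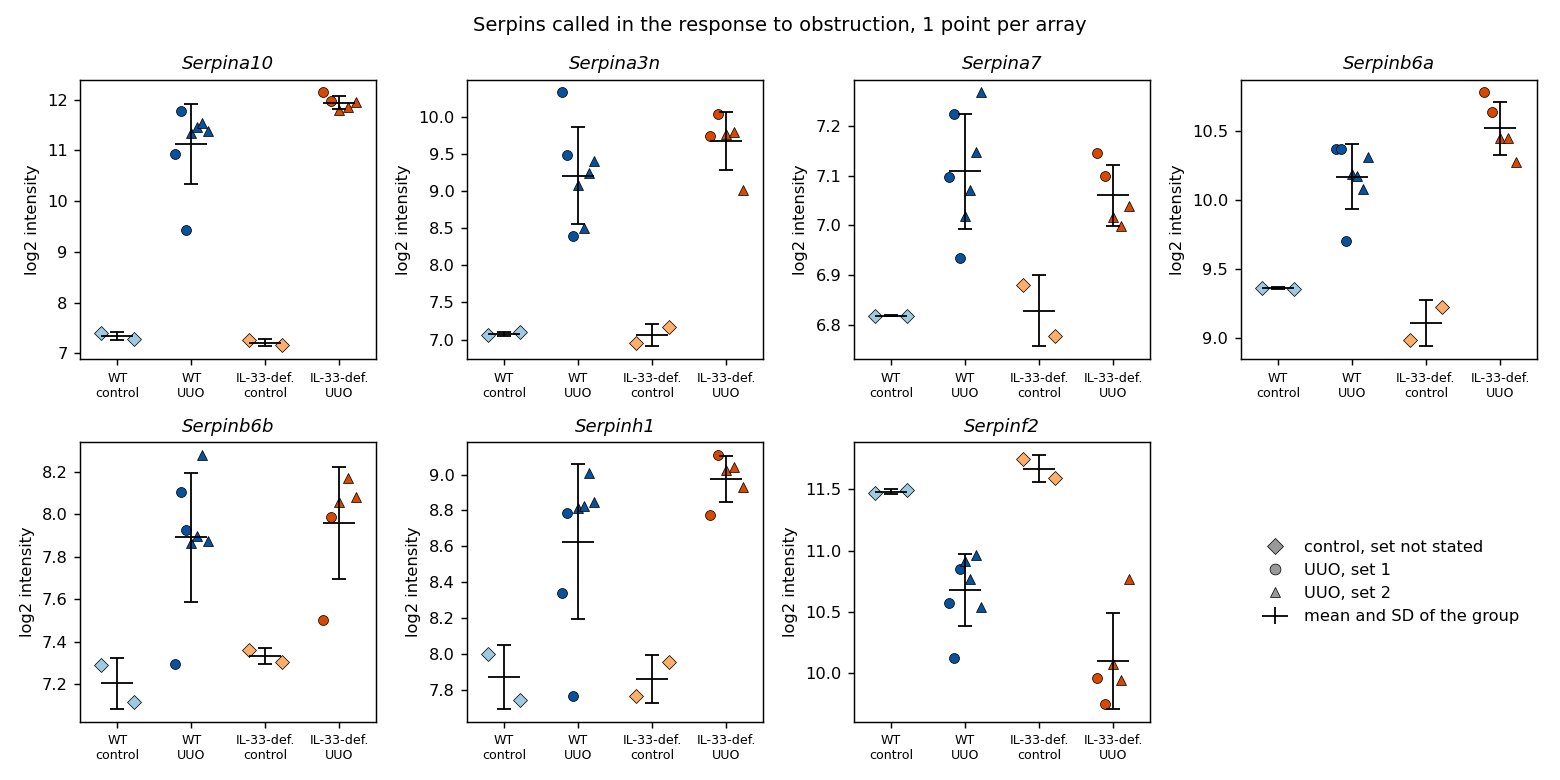
Log2 intensity of the 7 serpins called in the response to obstruction, 1 point per array, by group, with the mean and SD of each group. Symbols give the set of mice, and in every panel but that of Serpinh1 all UUO arrays lie beyond the control arrays of their genotype.

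Over all members, the arrays of the 2 groups did not overlap for 8 of 56 serpins in WT kidneys, beside 21.4% of all genes, and for 16 in IL-33-deficient kidneys, beside 35% of all genes. Beyond the serpins called, the 8 held Serpina3m and Serpinb1a. The serpins were thus not above the whole table in either genotype.

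Promoter sequences are shown for 3 called serpins, of which 2 rose and 1 fell, so that the letters before genes of opposite response can be read side by side. They are the called serpins with 1 listed start in the RefSeq table for GRCm38.p6 and at least 50 bases before the annotated gene. The table held no entry for Serpina10 and 2 starts for Serpina7 and for Serpinb6a. For Serpinb6b the start lay inside the gene and left fewer than 50 bases. The listed start of Serpina3n also lay inside its gene, which left 188 bases, fewer than the 250 used for the promoter shares below. The bases before the annotated gene are printed 5′ to 3′ on the strand of the gene, at chr12:104406458-104406645 (plus strand, 188 bases) for Serpina3n, chr11:75439502-75439751 (minus strand, 250 bases) for Serpinf2 and chr7:99353240-99353489 (minus strand, 250 bases) for Serpinh1. Capitals mark a match to a searched motif.
Serpina3n: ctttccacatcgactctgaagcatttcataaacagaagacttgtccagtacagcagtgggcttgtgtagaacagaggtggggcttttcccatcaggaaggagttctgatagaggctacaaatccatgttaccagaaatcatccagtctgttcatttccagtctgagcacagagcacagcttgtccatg
Serpinf2: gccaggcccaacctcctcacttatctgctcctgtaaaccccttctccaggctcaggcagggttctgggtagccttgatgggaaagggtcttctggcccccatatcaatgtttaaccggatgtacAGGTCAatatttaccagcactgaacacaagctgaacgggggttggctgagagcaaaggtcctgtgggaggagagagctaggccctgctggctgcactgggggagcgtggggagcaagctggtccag
Serpinh1: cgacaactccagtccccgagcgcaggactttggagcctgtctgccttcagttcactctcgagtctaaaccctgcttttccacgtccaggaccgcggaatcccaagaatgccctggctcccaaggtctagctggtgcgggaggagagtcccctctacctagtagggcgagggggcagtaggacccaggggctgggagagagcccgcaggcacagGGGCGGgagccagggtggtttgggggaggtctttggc
Both strands were searched for 7 motifs. The STAT site TTCNNNGAA, the heat shock site GAANNTTC, the AP-1 site TGANTCA and the E-box CACGTG were searched first and had no match in these 3 stretches. The GC box GGGCGG, the nuclear receptor half-site AGGTCA and the TATA box TATAAA were added after that search and after the sequences had been read, so these matches are not independent of the letters shown. In the order given, the 250 bases before the start held the motifs in 7.02%, 6.69%, 6.75%, 6.02%, 32.7%, 14% and 12.4% of 32851 promoters. Serpinf2 held the half-site, with its first base 126 bases before the start, Serpinh1 held the GC box, 37 bases before the start, and the Serpina3n stretch held none of the 7. Such a match is a description of the letters and not a site of binding.

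Serpins with roles in clotting, fibrinolysis and complement were described as a group of 10, of which Serpina10 rose, Serpinf2 fell and 8 did not pass in either genotype. Of all genes, 15.2% were called in either direction in WT and 21.8% in IL-33-deficient kidneys. Serpine2, protease nexin 1, lay between 7.10 and 7.41 on the 16 arrays, and its log2 fold changes were 0.08 ± 0.07 and -0.06 ± 0.07 (adjusted p = 0.532 and 0.668 from limma). Serping1, the C1 inhibitor of the complement cascade, was at 10.56 and 10.69 in the WT controls and from 9.69 to 10.72 after UUO, and at 10.54 and 10.61 in the IL-33-deficient controls and from 9.94 to 10.52 after UUO. Its log2 fold changes were -0.50 ± 0.23 (adjusted p = 0.172 from limma) and -0.37 ± 0.24 (adjusted p = 0.334 from limma).

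Serping1 was the member with the smallest p for the difference between the sets of mice after UUO. The 5 arrays of set 1 lay between 10.30 and 10.72 and the 7 of set 2 between 9.69 and 10.19, without overlap and in both genotypes, where 0.689% of all genes did not overlap between the sets. With genotype in the model, set 2 was lower, with a log2 difference of -0.56 ± 0.08 (adjusted p = 0.0773 from limma), and no gene of the table passed an adjusted p of 0.05 for the set. Unadjusted, the exact two-sided permutation p over the 12 arrays was 0.00126, the smallest that the 792 splits allow. Serping1 was 1 of 14 named serpins so tested, beside 9 added after their values were seen. Against the controls, the UUO arrays of set 2 gave a call of lower Serping1 in both genotypes, and those of set 1 in neither, and the WT arrays also gave it without array 3818, while the set of the controls is unknown. What separates the sets was not tested.

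Non-inhibitory serpins were a group of 5, of which Serpinh1 and Serpina7 rose in both genotypes and 3 did not pass. Over all genes 6.97% were called higher in WT and 10.6% in IL-33-deficient kidneys. Serpinf1, pigment epithelium-derived factor, an inhibitor of vessel growth, was at 7.53 and 7.76 in the WT controls and from 7.14 to 8.07 after UUO, and its log2 fold changes were -0.17 ± 0.18 and -0.01 ± 0.19 (adjusted p = 0.64 and 0.979 from limma). Its highest value after UUO was that of array 3818. Serpinb9, the intracellular inhibitor of granzyme B, stayed between 6.66 and 6.93, below the array median on all arrays.

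Target proteases, cofactors and receptors of serpins made a list of 41 genes, of which 38 were measured. In WT kidneys 4 were higher and 5 lower, and in IL-33-deficient kidneys 7 were higher and 5 lower, beside 15.2% and 21.8% of all genes called in either direction. Their median log2 fold changes were 0.004 and -0.011, beside -0.0008 and -0.0006 over all genes. Plaur, the urokinase receptor, rose by 1.08 ± 0.25 in WT and 1.04 ± 0.26 in IL-33-deficient kidneys, while the gene of its ligand, Plau, differed by 0.01 ± 0.19 and 0.03 ± 0.20. F2r, the thrombin receptor, rose by 0.66 ± 0.19 and 0.81 ± 0.20. Among proteases, the lysosomal cathepsin B gene Ctsb rose by 0.82 ± 0.21 and 1.04 ± 0.22 and St14, matriptase, by 0.35 ± 0.09 and 0.45 ± 0.09. Proc, the anticoagulant protein C, fell by 0.62 ± 0.09 in WT and by 1.02 ± 0.10 in IL-33-deficient kidneys, and Prss8, prostasin, fell by 0.80 ± 0.23 and by 0.73 ± 0.24. Plat and Plg, tissue plasminogen activator and plasminogen, lay between 6.79 and 7.26 on all arrays and did not pass.

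Collagens, the clients of HSP47, were listed as 8 genes, and 5 rose in WT and 6 in IL-33-deficient kidneys, with medians of 0.88 and 1.22, beside 6.97% and 10.6% of all genes called higher. Col5a1 rose by 1.35 ± 0.30 and 1.83 ± 0.31, and Col4a1 by 1.12 ± 0.18 and 1.46 ± 0.19. Serpinh1 and most of its clients therefore moved the same way in these kidneys. The fibroblast and myofibroblast list of 6 genes, which shares Col1a1 and Col1a2 with the clients, had 4 genes higher in WT and 5 in IL-33-deficient kidneys, beside the same shares of all genes.

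**Figure D4:**
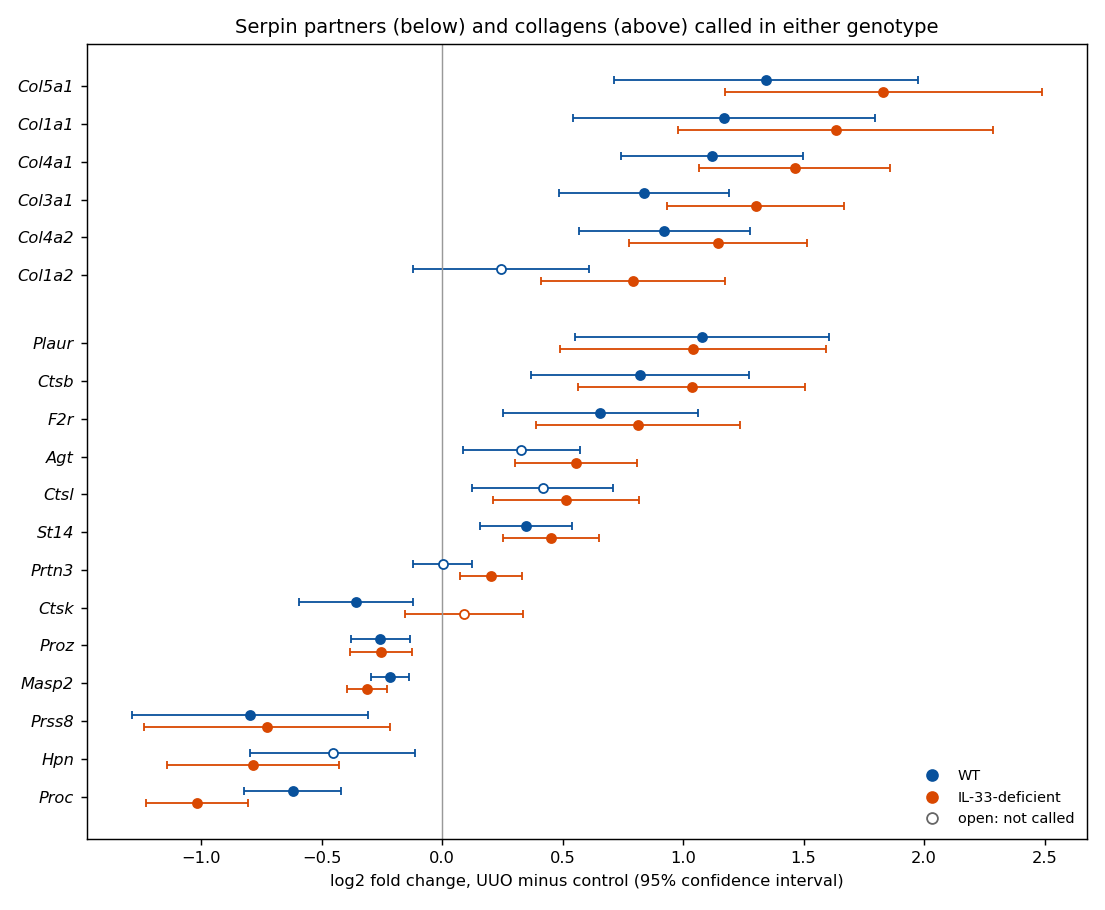
Log2 fold change with its 95% confidence interval, UUO minus control, of the 13 listed partners of serpins (below) and 6 collagens (above) that passed an adjusted p of 0.05 in at least 1 genotype. Filled points passed, Plaur and Ctsb among the partners that rose and Proc and Prss8 among those that fell.

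Some lists of cell type markers also changed after UUO, and others had few genes called or none. Summed over its 6 measured genes, the proximal tubule list was at 15.1 (log2) in all 4 controls, at 13.79 to 15.11 in WT kidneys after UUO and at 13.25 to 14.21 in IL-33-deficient ones. Of its 6 genes, 4 were lower in IL-33-deficient kidneys and none in WT. For this and the lists below, the shares of all genes were 6.97% higher and 8.22% lower in WT and 10.6% higher and 11.2% lower in IL-33-deficient kidneys. The macrophage sum was 10.22 to 10.46 in the controls, 10.60 to 11.90 in WT and 11.41 to 12.07 in IL-33-deficient kidneys after UUO, with 2 and 3 of its 6 genes higher and 1, Csf1r, lower in both genotypes by a log2 of -0.41 and -0.36. The neutrophil sum, over 4 of 6 genes measured, was 8.94 to 9.77 in the controls, 9.65 to 11.11 in WT and 10.36 to 11.41 in IL-33-deficient kidneys after UUO. The fibroblast sum was 11.36 to 11.65, 11.47 to 12.13 and 12.24 to 12.45 in the same order. Among the WT ends, 15.11, 10.60 and 11.47 were those of array 3820 and 9.65 that of array 3818. Without both arrays the WT sums were 13.79 to 14.69 for proximal tubule and 11.37 to 11.90 for macrophages. They were 10.76 to 11.11 for neutrophils and 11.66 to 12.13 for fibroblasts. Genes called lower in WT and IL-33-deficient kidneys were 3 and 2 of 5 for loop and distal tubule and 2 and 2 of 5 for collecting duct. They were 1 and 1 of 2 for podocytes, 0 and 1 of 5 for endothelium and 0 and 3 of 5 for urothelium. Lymphocyte and mast cell lists had no gene that passed and stayed between 8.40 and 9.37. Adipose, adrenal and liver lists had no gene that passed either. The part of cell numbers in the responses of the serpins was not tested.

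After UUO the genotypes were compared over the 12 arrays with the study's threshold, which asks for a fold above 1.3 with p below 0.05 before and below 0.25 after adjustment. None of the 56 serpins passed, beside 0.011% of all genes, which is 2 genes, and none passed an adjusted p of 0.05, beside 0.00552%. The labels do not say which WT arrays entered the study's own contrast, and the choice decides the count: with the 4 WT arrays of set 2 only, 3 serpins (Serpina10, Serpina3n and Serpinf2) and 226 genes passed the study's threshold. That comparison kept all 5 IL-33-deficient arrays, of both sets, so genotype and set cannot be fully told apart in it. With the arrays of set 2 alone in both genotypes, 1 serpin (Serpina10) and 81 genes passed. At an unadjusted p under 0.05 there were 5 serpins, Serpina10, Serpinb6a, Serpinf2, Serpinb9b and Serpinb11, beside 10.3% of all genes, and the smallest adjusted p of any serpin was 0.324. The test therefore called no difference, which does not show that the genotypes are alike.

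Serpina10 was higher in IL-33-deficient kidneys after UUO by a log2 of 0.82 ± 0.32 (95% confidence interval 0.12 to 1.52, adjusted p = 0.417 from limma). All 5 IL-33-deficient arrays, from 11.79 to 12.14, lay above all 7 WT arrays, by 0.02 from the highest of these, 11.77 on array 3819. It was the 1 serpin whose genotypes did not overlap, beside 0.756% of all genes. The exact two-sided permutation p was 0.00884, for 1 of 14 named serpins so tested, beside 9 added after their values were seen. The 14 include the 5 serpins of the 56 with the smallest p in this same comparison, so the exact p-values given for the genotypes are not adjusted for that choice and describe these arrays. Within set 2 the difference was 0.44 with no overlap (exact permutation p = 0.0286, the smallest that 3 against 4 arrays allow), and within set 1 it was 1.35 (exact permutation p = 0.2, where 2 against 3 arrays allow 0.1 at the smallest). Without array 3820 the difference was 0.54 and passed the threshold (adjusted p = 0.238 from limma), as it did without array 3819 (0.93, adjusted p = 0.244 from limma), so its size and its call turn on a few WT arrays. Without both 3818 and 3820 it was 0.45 (adjusted p = 0.146 from limma).

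Serpinf2 was lower in IL-33-deficient kidneys after UUO, with a log2 difference of -0.58 ± 0.18 (95% confidence interval -0.96 to -0.19, adjusted p = 0.324 from limma, exact permutation p = 0.0265). The groups overlapped through array 3899, at 10.77, and array 3819, at 10.12. Leaving out array 3899 moved the difference to -0.74 (adjusted p = 0.194 from limma) and leaving out array 3819 to -0.67 (adjusted p = 0.127 from limma), both past the threshold. The difference was -0.66 within set 1 (exact permutation p = 0.2) and -0.53 within set 2 (exact permutation p = 0.143).

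Serpinb6a was higher by a log2 of 0.35 ± 0.12 (95% confidence interval 0.10 to 0.60, adjusted p = 0.336 from limma, exact permutation p = 0.0139), with overlap between the genotypes. It was 0.56 within set 1 (exact permutation p = 0.1) and 0.21 within set 2 (exact permutation p = 0.0857). Without array 3819 it was 0.38 and passed the threshold (adjusted p = 0.195 from limma), and without array 3820 it was 0.27 and did not pass. Serpinb9b and Serpinb11 differed by -0.06 and -0.08, with all levels between 6.63 and 6.92, close to the floor of the table. For the other called serpins the differences were 0.47 ± 0.29 for Serpina3n, 0.35 ± 0.18 for Serpinh1, 0.07 ± 0.15 for Serpinb6b and -0.05 ± 0.05 for Serpina7, with adjusted p between 0.547 and 0.926 from limma. The Serpinh1 difference was 0.64 within set 1 (exact permutation p = 0.3) and 0.13 within set 2 (exact permutation p = 0.0857). Without array 3820 it was 0.21 over the 2 sets. After UUO the fibroblast sums given above did not overlap between the genotypes, with 1 of 6 genes called, beside 0.011% of all genes. The proximal tubule sums overlapped, with none of 6 genes called. The part of these lists in the values of the serpins was not tested.

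**Figure D5:**
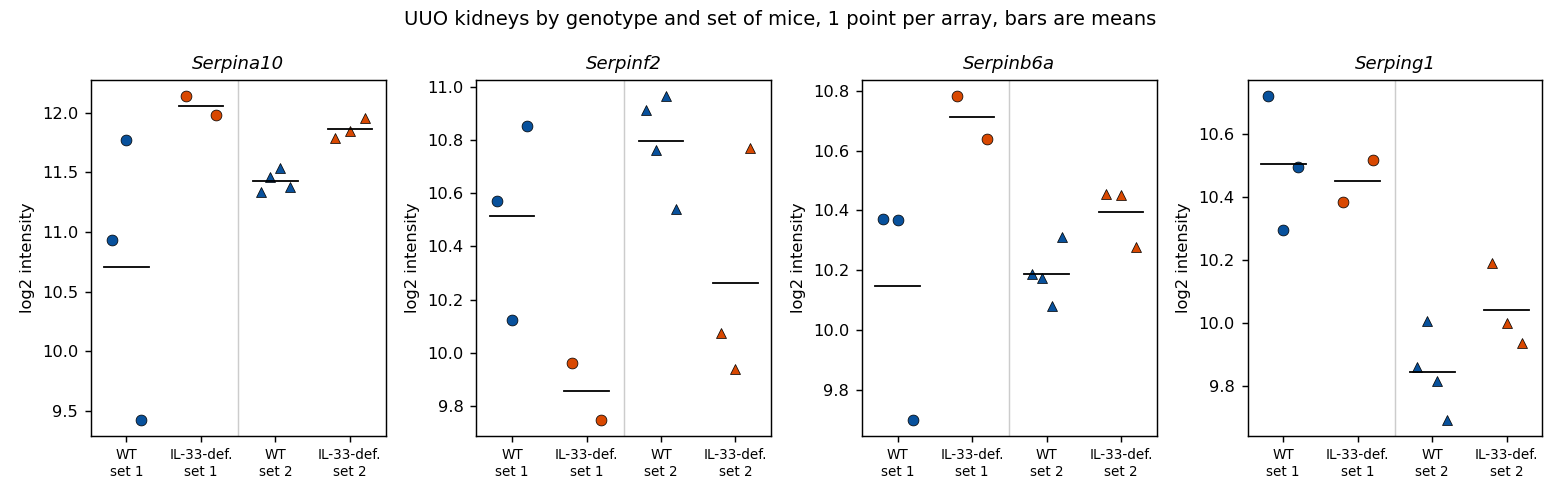
Log2 intensity of Serpina10, Serpinf2, Serpinb6a and Serping1 in UUO kidneys by genotype and set of mice, 1 point per array, with bars at the means. The IL-33-deficient arrays of Serpina10, from 11.79 to 12.14, lie above all WT arrays, and Serping1 lies lower in set 2 than in set 1 in both genotypes.

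Whether the response itself differed between the genotypes was tested as an interaction over the 16 arrays. None of the 56 serpins passed an adjusted p of 0.05, beside 0% of all genes, and 3 had an unadjusted p under 0.05, Serpinb6a, Serpinf2 and the dim Serpinb5, beside 4.74% of all genes. The response of Serpinb6a was larger in IL-33-deficient kidneys by a log2 of 0.60 ± 0.22 and that of Serpinf2 differed by -0.77 ± 0.33, a larger fall (adjusted p = 0.973 for both from limma). That of Serpina10 differed by 0.94 ± 0.59 (adjusted p = 0.973 from limma, 95% confidence interval -0.32 to 2.21). In the controls, IL-33-deficient and WT kidneys were compared with 2 arrays each: no serpin passed, beside 0% of all genes, and 2 dim ones, Serpina11 and Serpinb9g, had an unadjusted p under 0.05, beside 3.66% of all genes. Serpina10 differed there by -0.12 ± 0.51, Serpinf2 by 0.19 ± 0.28 and Serpinb6a by -0.25 ± 0.19.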

How the data were processed

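Illumina BeadChips measured the RNA of 16 mouse kidneys, each on its own array, and arrays were grouped by the genotype and treatment in the labels. The authors deposited linear intensities, 1 per gene, for 18132 genes with no missing value. The submitters' processing notes name BeadStudio 2. How background was removed, arrays were normalized and probes were combined into genes is not given in the sources used here. Array medians of 132 to 133 and a median difference of 0.708% between arrays at the same rank show that the values had already been scaled alike. An intensity of about 95 is background, so fold changes of dim genes are compressed, and without detection p-values no gene was removed. The number of arrays limits the precision.

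Here the intensities were quantile-normalized, logged to base 2 and tested in limma (version 3.58.1, R version 4.3.3; lmFit, then eBayes). P-values were adjusted by the Benjamini-Hochberg method across the whole table. A model of the 4 groups gave the responses, their difference and the control comparison. The genotypes after UUO were fitted over the 12 UUO arrays. Exact permutation tests, promoter searches and figures used Python 3.11.15, numpy 2.4.6, scipy 1.17.1, pandas 2.3.3 and matplotlib 3.10.9. Each array is taken as 1 mouse, so p-values measure the spread between these arrays.

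The members, gene lists and tests were chosen with earlier results of these data known. Named serpins were those called, the 5 with the smallest p between genotypes after UUO, and 7 fixed by function, 14 in all, of which 1 is not reported here. A further 9 (Serpina1a to Serpina1f, Serpina3g, Serpina3m and Serpinb1a) were added after their values had been seen, as were the other serpins named for an unadjusted p or for a place in a chromosome or brightness count. Alternatives varied the normalization, background, prior variance, array weights, dim genes, sets and single arrays. The scripts were tested on simulated data.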

Additional observations from a re-analysis of the deposited data

Results flagged for a closer look

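In 48 groups of named genes with 5 or 7 arrays, 11 held an array set far apart from the rest, where chance gives about 1 in 20 groups of independent values. The groups share arrays, and 9 of the genes had been added after their values were seen, among them Serpina1e, Serpina3m and Serpinb1a, so the count cannot be read against chance. On WT array 3818 Serpina1e stood at 10.4 against 6.80 to 7.04 on the other WT arrays after UUO, Serpina3m at 7.56 against 6.99 to 7.11, Serpinb6b at 7.3 against 7.86 to 8.28 and Il33 at 8.39 against 9.10 to 9.57. On WT array 3820 Serpina10 stood at 9.43 against 10.93 to 11.77 and Serpinb1a at 7.77 against 7.20 to 7.44. On WT array 3895 the dim Serpinb11 was at 6.92 against 6.75 to 6.81, and Serpinb9 at 6.71 against 6.77 to 6.81. Among IL-33-deficient arrays, Serpinb6b was at 7.5 on array 3821 against 7.99 to 8.17, Serpine2 on the same array at 7.27 against 7.14 to 7.18, and Serpina3n on array 3899 at 9.01 against 9.74 to 10.04.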

How the results depend on the processing

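The 7 serpins called in WT became 4 when the 2 groups were fitted alone and 1, Serpina10, with the UUO arrays of set 1 only. Over all genes the calls fell from 2754 to 1778 and 188 in the same order. Leaving out 1 UUO array gave 6 to 8 serpins, beside 2308 to 3578 genes. The 7 in IL-33-deficient kidneys became 4 with set 1 only, where the calls over all genes fell from 3955 to 2258. With 1 UUO array left out they were 5 to 7, beside 3573 to 3798 genes. Without 1 of the 2 controls of a genotype, both the serpins and the genes called in its response were fewer. Between the genotypes after UUO the count of 0 became 1 with brighter genes alone (Serpinf2), 1 with set 2 alone (Serpina10) and 1 with the 4 groups in 1 model (Serpinf2). It became 3 (Serpina10, Serpina3n, Serpinf2) with the WT arrays of set 2 only, set against the IL-33-deficient arrays of both sets. It became 1 (Serpina10) with both WT arrays 3818 and 3820 left out, an alternative chosen after seeing the data. Over all genes tested 168, 81, 127, 226 and 43 passed in the same order, beside 2 in the comparison reported. With 1 array left out the count of serpins was 0 to 3, with 3 without array 3819 and 1 each without arrays 3820 and 3899. Without these arrays 309, 31 and 94 of all genes passed, in that order. The partner list had 5 calls in place of 9 in WT with the 2 groups alone, 0 with set 1 only and 2 to 12 with 1 array left out, and in place of 12 in IL-33-deficient kidneys 6 with set 1 only and 6 to 12 with 1 array left out. With brighter genes alone, which keeps fewer members, the clade medians were 0.197 and -0.0520 for clade A and 0.688 and 0.628 for clade B, in WT and IL-33-deficient kidneys. Brightness was the mean over all arrays, UUO included, so members that rose passed this filter more easily. The clade B medians were the values of 1 gene, Serpinb6b, and do not describe the clade. The clade B median was -0.000324 to 0.0142 in WT and 0.0230 to 0.0622 in IL-33-deficient kidneys with 1 array left out, and in the latter 0.0705 with normexp and 0.0241 with set 2 only. The cause was not tested where fewer arrays or genes do not give it. The clade A median was 0.0157 to 0.0551 in WT and -0.0308 to -0.0106 in IL-33-deficient kidneys with 1 array left out. The clade B median in WT, which has no test, changed sign without array 3894. No tested result changed direction, and under the other alternatives the counts of calls stayed within 1.5 times of the reported ones, 0 for the interaction and for the controls under every alternative tried. No paired analysis was possible because the array numbers differ between the groups; the set as a block gave no call between the genotypes. With 2 controls a genotype and dim signals, small changes and changes near the floor could be missed.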
